A study of Mus musculus with 6 samples.

Results

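AMP-activated protein kinase (AMPK) senses cellular energy. Each kinase is a heterotrimer of a catalytic alpha subunit, a beta subunit that scaffolds the complex and binds glycogen, and a gamma subunit that binds adenine nucleotides, and it is switched on when an upstream kinase phosphorylates the activation loop of the alpha subunit. In skeletal muscle, it is known for promoting glucose uptake and fatty acid oxidation when energy runs low.

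The transcripts described here are those of the AMPK subunits *PRKAA1*, *PRKAA2*, *PRKAB1*, *PRKAB2*, *PRKAG1*, *PRKAG2* and *PRKAG3* and of the upstream kinases *CAMKK2* and *STK11*. They were found by the gene name of each probe, ignoring case, and each probe was kept separate, which gave 13 probes of 9 genes among 45281 probes on the array. C2C12 cells, a mouse myoblast line that fuses into myotubes, received 60 nM of either a control siRNA (Scramble) or an siRNA against DJ-1 (siDJ-1, gene *Park7*), an antioxidant protein. The medium was changed 48 h later to one that induces differentiation, and total RNA was taken after 96 h. Each group had 3 arrays on a single bead chip, on which a probe is read on many beads. The labels name replicates but not separate cultures, so p-values measure the spread between these samples, which may be technical.

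Signal is given on the log2 scale after background correction and quantile normalization, and a probe was tested where its detection p, the chance of such a signal among negative control beads, was under 0.05 on at least 3 of the 6 arrays. Median deposited signal ranged from 152 to 167 over the 6 arrays. Between 16985 and 18179 probes were detected on a Scramble array and between 18408 and 18857 on an siDJ-1 array. The member probes were read on 20 to 55 beads each. The fitted background spread, in signal units, reached 22.3, 18.9 and 16.1 in the Scramble group and 12.8, 12.1 and 11 in the siDJ-1 group, and the part of this difference in the results for dim probes was not tested.

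The knockdown target was examined first. Log2 signal of *Park7* (probe ILMN_2728754) was 13.59, 13.37 and 13.63 under Scramble and 12.48, 12.49 and 12.15 under siDJ-1. Every siDJ-1 array lay below every Scramble array. The log2 fold change was -1.16 (95% confidence interval -1.49 to -0.84, limma adjusted p = 0.00344).

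Among the AMPK transcripts, the clearest changes were a fall of *PRKAG3* and a rise of *STK11*, with a smaller margin for a rise of *PRKAB2*. Of the 12 tested member probes, 4 passed an adjusted p of 0.05 (33.3%), 2 higher and 2 lower in siDJ-1. Over all 17890 tested probes, 30.1% passed, 16.5% higher and 13.6% lower, and whether the members' share differs from this was not tested. Without siDJ-1 replicate 1, 14.2% of all tested probes and 3 member probes passed, and without siDJ-1 replicate 3, 15.2% and 3. With no filter on dim probes, 7.77% of all probes and 3 member probes passed. Groups were fully separated in 6 of 12 member probes, compared with 48.5% of all tested probes. The median log2 fold change was -0.17 for the members and 0.046 for all tested probes. These are bulk RNA values, in which fewer cells of a type and less RNA per cell cannot be told apart.

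**Figure D1:**
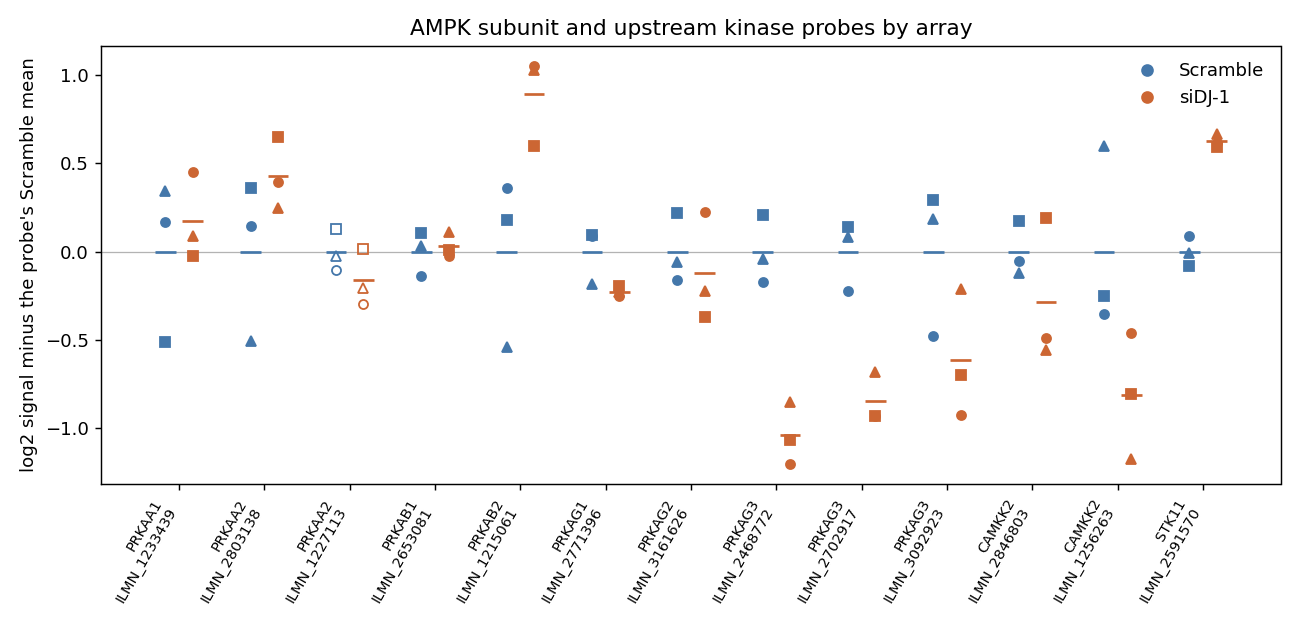
Log2 signal of the 13 member probes on each array, minus the probe's mean over the Scramble arrays (blue, Scramble; orange, siDJ-1; circle, square and triangle, replicates 1, 2 and 3; short lines, group means; open symbols, the probe that was not tested). The siDJ-1 arrays lie below the Scramble arrays for 2 *PRKAG3* probes and above them for *STK11* and *PRKAB2*, the 4 called probes. They also lie below for *PRKAG1* and *CAMKK2* ILMN_1256263, which were not called.

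The gamma subunits bind AMP, ADP and ATP. *PRKAG3*, the gamma isoform found mainly in skeletal muscle, has 3 probes. Log2 signal of probe ILMN_2468772 was 8.50, 8.88 and 8.63 under Scramble and 7.47, 7.60 and 7.82 under siDJ-1. Log2 signal of probe ILMN_2702917 was 7.50, 7.86 and 7.80 under Scramble and 6.79, 6.79 and 7.04 under siDJ-1. For both probes, all siDJ-1 arrays lay below all Scramble arrays, in the deposited signal as well. The group means of ILMN_2468772 were 8.67 ± 0.19 and 7.63 ± 0.18 (SD, n = 3), a log2 fold change of -1.04 (95% confidence interval -1.38 to -0.69, limma adjusted p = 0.00474) that left 48.7% of the Scramble signal. The log2 fold change of ILMN_2702917 was -0.85 (95% confidence interval -1.17 to -0.52, limma adjusted p = 0.00707), and it was -0.46 without background correction, which compresses changes of dim probes.

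The third *PRKAG3* probe, ILMN_3092923, was near background, detected on 2 Scramble arrays and 1 siDJ-1 array. Its log2 signal was 5.56, 6.33 and 6.23 under Scramble and 5.11, 5.34 and 5.83 under siDJ-1, and the groups overlapped, though the deposited signals did not. The log2 fold change of -0.61 did not pass the test (limma adjusted p = 0.122). It passed with array weights (-0.82, adjusted p = 0.0392) and without Scramble replicate 1 (-0.87, adjusted p = 0.0339), and adjusted p ranged from 0.0133 to 0.305 over all alternatives, the lowest being that of the mean of the 3 probes. Without background correction the value was -0.20, and with an offset of 50 it was -0.37.

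**Figure D2:**
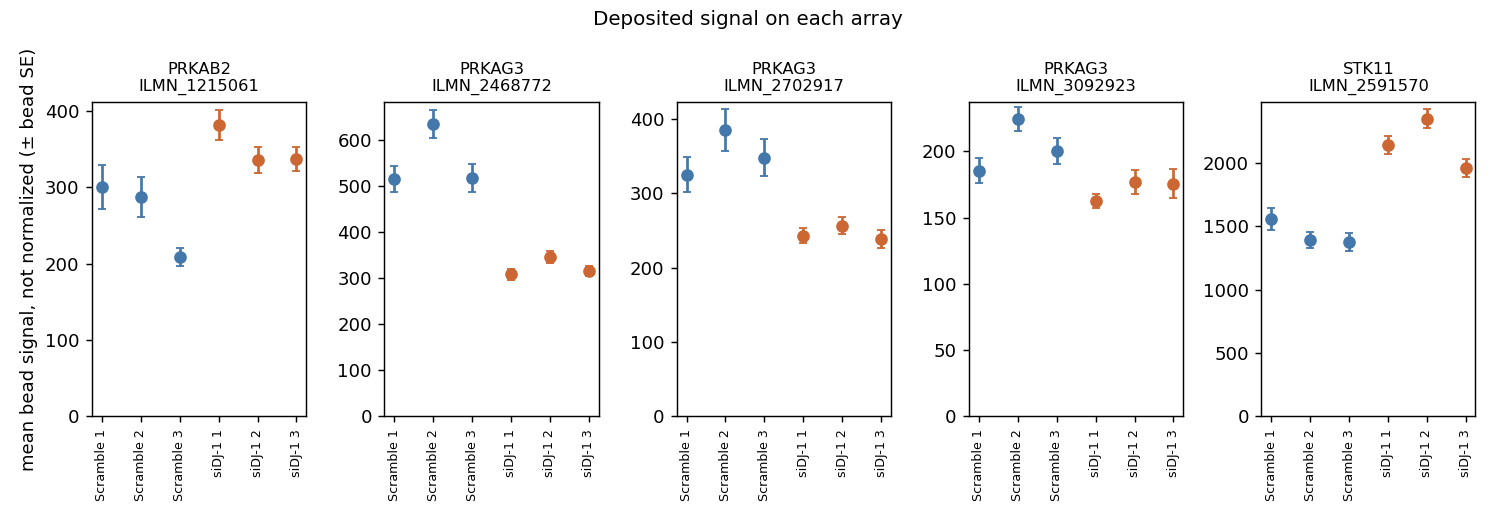
Deposited mean bead signal of *PRKAB2*, *PRKAG3* and *STK11* probes on each array, without normalization (blue, Scramble; orange, siDJ-1; bars, standard error over beads). The *STK11* signal is 1558, 1392 and 1374 under Scramble and 2142, 2350 and 1958 under siDJ-1.

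The other gamma subunits gave no call. *PRKAG1*, the widely expressed isoform, had a log2 signal of 10.32, 10.33 and 10.05 under Scramble and 9.98, 10.04 and 10.00 under siDJ-1. The normalized groups did not overlap, but the deposited signals did. Its log2 fold change was -0.23 (95% confidence interval -0.49 to 0.040, limma adjusted p = 0.169). *PRKAG2*, whose mutations are known to cause a glycogen storage cardiomyopathy, was detected on 2 Scramble arrays and 1 siDJ-1 array and had a log2 fold change of -0.12 (limma adjusted p = 0.649), which ran from -0.27 with a 75th percentile shift to -0.00025 without siDJ-1 replicate 2. With that shift, *PRKAG1* was at -0.15.

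The beta subunits hold the complex together. *PRKAB2*, the isoform prominent in skeletal muscle, had a log2 signal of 7.29, 7.11 and 6.39 under Scramble and 7.99, 7.53 and 7.97 under siDJ-1. Scramble replicate 3 was the lowest of the 6, and the groups did not overlap. The log2 fold change was 0.89 (95% confidence interval 0.29 to 1.503, limma adjusted p = 0.0395), and 0.49 without background correction. The call was lost without Scramble replicate 2 (0.98, adjusted p = 0.0633) or 3 (0.62, adjusted p = 0.0536) and without siDJ-1 replicate 1 (0.82, adjusted p = 0.118) or 3 (0.83, adjusted p = 0.123). It was also lost with no filter on dim probes (adjusted p = 0.0848) and with a test that does not moderate the variances (adjusted p = 0.12). Over all 17 alternatives, the direction did not change and adjusted p ranged from 0.00645 to 0.123. *PRKAB1*, the other beta isoform, had a log2 fold change of 0.032 (95% confidence interval -0.22 to 0.29, limma adjusted p = 0.844), which turned to -0.038 without Scramble replicate 1, -0.0066 without siDJ-1 replicate 3 and -0.015 with array weights.

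The alpha subunits carry the kinase domain. Both were dim. Mean deposited signal of *PRKAA1* was 217.4 under Scramble and 220.9 under siDJ-1, and that of *PRKAA2* ILMN_2803138 was 228.5 and 250.9. The fitted background mean of the arrays ran from 141.4 to 156. *PRKAA1* had a log2 signal of 6.48, 5.80 and 6.66 under Scramble and 6.77, 6.29 and 6.40 under siDJ-1. The groups overlapped, and the log2 fold change was 0.17 (95% confidence interval -0.41 to 0.76, limma adjusted p = 0.632), or -0.084 without Scramble replicate 2 and 0.35 without Scramble replicate 3. *PRKAA2*, the isoform abundant in skeletal and cardiac muscle, had a log2 signal of 6.61, 6.83 and 5.96 under Scramble and 6.86, 7.12 and 6.72 under siDJ-1 (probe ILMN_2803138). The groups overlapped here too, and the log2 fold change of 0.43 had a 95% confidence interval of -0.13 to 0.99 (limma adjusted p = 0.209). It was 0.18 without Scramble replicate 3, and 0.18 without background correction. The second *PRKAA2* probe, ILMN_1227113, was detected on 0 arrays and was not tested. The probes of other genes whose pattern over the 6 arrays was most like that of *PRKAA2*, by the root mean square difference of centred log2 signal, were those of *Mcam* (0.0702), *Tada2a* (0.0786) and *1700011J10Rik* (0.0827).

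The upstream kinases phosphorylate the alpha subunit, *STK11* (LKB1) in a complex with STRAD and MO25 proteins and *CAMKK2* in response to calcium. Log2 signal of *STK11* was 10.44, 10.27 and 10.34 under Scramble and 10.96, 10.94 and 11.01 under siDJ-1. The spread within each group was smaller than the distance between them. The group means were 10.35 ± 0.085 and 10.97 ± 0.036 (SD, n = 3), a log2 fold change of 0.62 (95% confidence interval 0.40 to 0.85, limma adjusted p = 0.006), or 154% of the Scramble signal. *CAMKK2* has 2 probes. Probe ILMN_2846803 read 7.01, 7.23 and 6.94 under Scramble and 6.57, 7.25 and 6.51 under siDJ-1, with siDJ-1 replicate 2 the highest of all. Its log2 fold change was -0.28 (limma adjusted p = 0.352), and without that array it was -0.52 and passed (adjusted p = 0.042, range over the alternatives 0.042 to 0.682), while it was -0.15 without siDJ-1 replicate 3 and -0.13 without background correction. Probe ILMN_1256263 read 5.99, 6.10 and 6.95 under Scramble and 5.89, 5.54 and 5.17 under siDJ-1. The groups did not overlap, but the log2 fold change of -0.81 did not pass (95% confidence interval -1.51 to -0.11, limma adjusted p = 0.0784). Without background correction it was -0.28, and without Scramble replicate 3 it was -0.52. It passed with a 75th percentile shift (adjusted p = 0.0478) and with a trend of the prior variance (adjusted p = 0.045), within a range of 0.045 to 0.222. The mean of the 2 probes was -0.55 and did not pass (adjusted p = 0.0559).

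**Figure D3:**
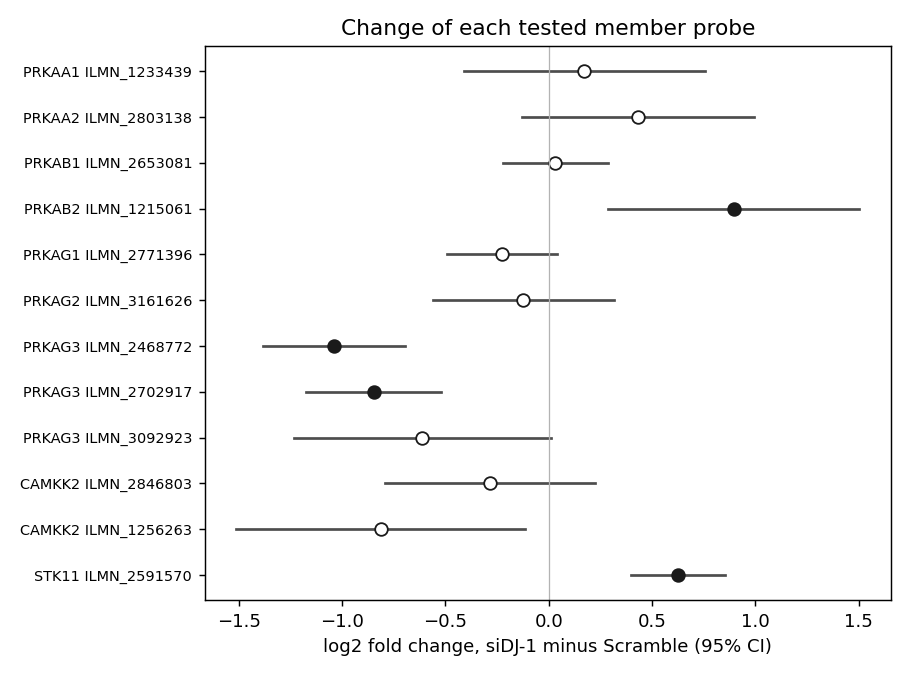
Log2 fold change (siDJ-1 minus Scramble) of the 12 tested member probes with its 95% confidence interval. Filled points passed an adjusted p of 0.05, and these are the probes of *PRKAB2*, *STK11* and 2 of the 3 of *PRKAG3*.

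Changes were compared within 5 pairs, 4 of subunit paralogues and 1 of the 2 upstream kinases, which are not paralogues, using the brightest tested probe of each gene and the per-array difference in log2 signal. *PRKAG3* fell by 0.81 relative to *PRKAG1*, and the groups did not overlap (exact permutation over arrays, two-sided, p = 0.1, or 0.167 adjusted over the pairs). The change of *PRKAB2* relative to *PRKAB1* was 0.86 and that of *CAMKK2* relative to *STK11* was -0.91, with the same permutation p of 0.1. *PRKAA2* against *PRKAA1* (0.26) and *PRKAG2* against *PRKAG1* (0.10) gave overlapping groups (exact permutation p = 0.8 each). Both of these differences turned, that of *PRKAA2* to -0.17 without Scramble replicate 3 (0.69 without Scramble replicate 2, 0.054 without siDJ-1 replicate 2) and that of *PRKAG2* to -0.12 with a 75th percentile shift and -0.024 without Scramble replicate 1. Without background correction, the difference was 0.46 for *PRKAB2* and -0.50 for *PRKAG3*. That of *PRKAB2* was 0.57 without Scramble replicate 3. With the mean of its probes, *CAMKK2* against *STK11* was -1.17. With 3 arrays in each group, 0.1 is the lowest p this test can give, so 0.05 was out of reach.

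The starts of the genes with a called probe are shown because they are the members that moved. Each run holds the 250 bases before the start in RefSeq (GRCm38.p6), on the gene's strand. Capitals mark an E-box of the sequence CAGCTG, which myogenic factors can bind, the hypoxia response core ACGTG or GCGTG, or the antioxidant response element core TGACNNNGC, searched on both strands. All 9 genes are in the RefSeq table.
PRKAG3, chr1:74748956-74749205, minus strand: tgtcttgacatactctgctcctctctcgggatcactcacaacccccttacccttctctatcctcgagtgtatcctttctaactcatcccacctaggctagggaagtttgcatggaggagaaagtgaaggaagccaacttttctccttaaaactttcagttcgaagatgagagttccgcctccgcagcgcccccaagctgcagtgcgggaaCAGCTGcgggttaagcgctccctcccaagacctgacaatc
STK11, chr10:80115545-80115794, plus strand: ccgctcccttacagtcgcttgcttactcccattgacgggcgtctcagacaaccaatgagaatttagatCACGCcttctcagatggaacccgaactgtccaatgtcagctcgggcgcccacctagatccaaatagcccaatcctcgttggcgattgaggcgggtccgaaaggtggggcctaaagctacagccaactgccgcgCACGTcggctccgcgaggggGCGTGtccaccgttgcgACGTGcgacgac
PRKAB2, chr3:97657962-97658211, plus strand: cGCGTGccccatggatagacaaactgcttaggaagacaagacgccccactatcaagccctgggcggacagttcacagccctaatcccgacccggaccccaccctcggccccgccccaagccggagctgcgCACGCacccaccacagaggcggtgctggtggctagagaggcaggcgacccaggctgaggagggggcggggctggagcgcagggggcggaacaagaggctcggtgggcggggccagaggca
*PRKAG3* holds 1 E-box, 40 to 35 bases before the start, and no match to the other motifs. *STK11* holds 4 hypoxia cores and *PRKAB2* holds 2, with no E-box. No matches overlapped. Of 32841 promoters of this length, 13% hold the E-box, 38.6% the hypoxia core and 10.2% the antioxidant core, so that matches of these kinds are common. The motifs were chosen after the values had been seen, and binding was not measured.

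Other genes of the pathway were described by list. Of the 23 tested probes of AMPK upstream regulators, 7 were higher and 1 was lower in siDJ-1 (34.8% called, against 30.1% of all tested probes, of which 16.5% higher), with a median log2 fold change of 0.33. That count of 8 fell to 1 without siDJ-1 replicate 1 or 3, to 2 without Scramble replicate 2 or with no filter, and to 4 without Scramble replicate 3 or with the unmoderated test. With the mean of probes per gene, 4 of 13 genes were called (30.8%, against 32.9% of all genes). *Fnip1*, a folliculin partner that binds AMPK, rose with probe ILMN_1240202 (0.98, limma adjusted p = 0.00946) and with ILMN_2725155 (0.61, limma adjusted p = 0.0266). The other tested *Fnip1* probe, ILMN_2854418, was at 0.60 and did not pass (limma adjusted p = 0.0546). *Tab1*, an adaptor of the kinase TAK1, rose by 0.50 with probe ILMN_2906042 (limma adjusted p = 0.0172). *Map3k7*, which encodes TAK1, had a log2 fold change of -0.90 (limma adjusted p = 0.0412). The other 3 tested *Tab1* probes did not pass. Without siDJ-1 replicate 3, the calls of *Map3k7* (-0.68, adjusted p = 0.113, range over the alternatives 0.00666 to 0.124), *Tab1* (0.45, adjusted p = 0.0603, range 0.00265 to 0.075) and *Fnip1* ILMN_2725155 (0.47, adjusted p = 0.0623, range 0.000731 to 0.0737) were lost. Leaving out siDJ-1 replicate 1 also ended these calls (-0.94, 0.49 and 0.64). The call of *Map3k7* was lost without Scramble replicate 2 (-0.71) or 3 (-0.92) too, and that of the *Fnip1* probe without Scramble replicate 1 (0.59) or 2 (0.56). Both also went with no filter and with the unmoderated test, and that of *Tab1* with the mean of its probes (0.41). *Map3k7* was -0.51 without background correction.

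AMP metabolism sets the nucleotides that AMPK senses. Of 16 tested probes, 2 were higher and 2 lower (25% called, against 30.1% of all tested probes), with a median of 0.025. Without Scramble replicate 3, siDJ-1 replicate 1 or siDJ-1 replicate 3, 2 were called. Both lower probes belong to *Ampd1*, the muscle AMP deaminase, whose log2 fold changes were -1.499 (ILMN_1237871, limma adjusted p = 0.00458) and -1.49 (ILMN_2971142, limma adjusted p = 0.0182). The second was -0.82 without background correction, and its call was lost with the unmoderated test. *Ak4*, a mitochondrial adenylate kinase, rose by 0.67 (limma adjusted p = 0.035). *Adss*, an adenylosuccinate synthase, rose by 0.44 (limma adjusted p = 0.0203). Neither of these rises passed without siDJ-1 replicate 3, where *Ak4* was at 0.62 (adjusted p = 0.112, range 0.0103 to 0.112) and *Adss* at 0.41 (adjusted p = 0.0689, range 0.00886 to 0.0729). The same held without siDJ-1 replicate 1 (0.76 and 0.44) and without Scramble replicate 3 (0.51 and 0.38), and for *Ak4* without Scramble replicate 2 (0.66) or siDJ-1 replicate 2 (0.65), with no filter and with the unmoderated test. Without background correction, *Ak4* was 0.40.

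AMPK-related kinases share the kinase fold of AMPK, and most are activated by *STK11*. Of 16 tested probes, 3 were higher and 4 lower (43.8% called, against 30.1% of all tested probes), with a median of -0.028. The count of 7 fell to 1 without siDJ-1 replicate 1, to 2 without siDJ-1 replicate 3, to 3 with the unmoderated test, and to 4 without Scramble replicate 3. By the mean of probes with the same gene name on the array, 4 of 9 names were called (44.4%, against 32.9% of all names). These 9 names cover 8 tested genes. *Nuak2* rose by 0.56 (limma adjusted p = 0.0166) and *Sik3* by 0.80 (limma adjusted p = 0.0143). *Mark3*, a microtubule affinity-regulating kinase, rose with 1 of its 4 tested probes (0.76, limma adjusted p = 0.0199), and the mean of its probes was -0.0019. Probe ILMN_3001043 of *Melk*, a kinase of dividing cells, is counted among the lower ones, but it was detected on 3 Scramble arrays and 0 siDJ-1 arrays, so that it entered the test through the Scramble arrays alone (mean log2 signal 6.18 and 5.08). The other tested *Melk* probe gave 0.086 and did not pass. The mean of the 2 tested *Melk* probes was -0.51 (adjusted p = 0.041) and is among the 4 names called. That count therefore also draws on the probe that entered through the Scramble arrays. The other 3 lower probes, named after their values were seen, were 2 of *Nuak1* and 1 of *Mark2*. *Nuak1* was at -0.52 with probe ILMN_1227458 (limma adjusted p = 0.0133), a call lost without siDJ-1 replicate 1 (-0.50). It was at -0.36 with ILMN_2928720 (limma adjusted p = 0.0478), or -0.23 without background correction. That call was lost under 9 alternatives, among them each array but Scramble replicate 1 left out (-0.41 to -0.30). The other tested *Nuak1* probe did not pass. *Mark2* was at -0.44 with probe ILMN_2689887 (limma adjusted p = 0.0415) and lost its call under 9 alternatives, among them each array but Scramble replicate 3 left out (-0.51 to -0.35). The mean of the 2 tested *Mark2* probes was -0.25 and did not pass (adjusted p = 0.133). Without siDJ-1 replicate 3, *Nuak2* (0.55, adjusted p = 0.0587, range 0.00217 to 0.0641), *Sik3* (0.72, adjusted p = 0.0547, range 0.00942 to 0.0551) and the *Mark3* probe (0.64, adjusted p = 0.0645, range 0.0117 to 0.993) no longer passed. Nor did they without siDJ-1 replicate 1 (0.48, 0.71 and 0.71), or *Mark3* without Scramble replicate 3 (0.73), and *Sik3* and *Mark3* did not pass with the unmoderated test. Without background correction, *Sik3* was 0.28 and the *Mark3* probe 0.34.

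Transcripts of proteins that AMPK phosphorylates showed 8 higher and 0 lower among 29 tested probes (27.6% called, against 30.1% of all tested probes, or 16.5% for higher alone), with a median of 0.064. Per gene, by the mean of probes, 4 of 20 were called (20%, against 32.9% of all genes). The 8 probes belong to *Txnip*, *Ulk1*, *Hdac5* and *Hdac7*. *Txnip*, which restrains glucose uptake, rose by 1.97 and 1.81 with its 2 named probes (limma adjusted p = 0.00299 and 0.00268). *Ulk1*, which initiates autophagy, rose by 1.13 with probe ILMN_2506115 (limma adjusted p = 0.00403), and *Hdac5*, a histone deacetylase that represses muscle genes, rose by 0.96 with ILMN_3112922 (limma adjusted p = 0.00316). *Acacb*, the acetyl-CoA carboxylase of muscle, had a log2 fold change of -0.30 with its tested probe (limma adjusted p = 0.457), and -0.055 without Scramble replicate 3 or -0.054 without siDJ-1 replicate 3. Its other probe was detected on 0 arrays. No probe of *Acaca* was matched in the file.

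Among muscle transcripts known to respond to AMPK, 6 of 25 tested probes were higher and 2 lower (32% called, against 30.1% of all tested probes), with a median of 0.16. The count of 8 became 3 without siDJ-1 replicate 1 or 3, and 4 without Scramble replicate 2. Per gene, by the mean of probes, 5 of 16 were called (31.2%, against 32.9% of all genes). *Pdk4*, which limits pyruvate oxidation, rose by 1.30 (limma adjusted p = 0.00277). *Fbxo32*, a ubiquitin ligase of muscle wasting, rose by 1.02 (ILMN_2873444, limma adjusted p = 0.00797) and 0.91 (ILMN_2715893, limma adjusted p = 0.023), the second of which was lost without siDJ-1 replicate 3 (0.83, adjusted p = 0.0821, range 0.00369 to 0.0821), siDJ-1 replicate 1 (0.80), Scramble replicate 1 (0.82) or Scramble replicate 2 (0.82). The unmoderated test also ended that call, and without background correction the probe was at 0.52. *Nampt*, which makes an NAD precursor, rose by 1.01 with probe ILMN_1232209 (limma adjusted p = 0.00571), and by 0.62 without background correction. The mean of the 2 tested *Nampt* probes was 0.69 (adjusted p = 0.00968). The coactivator *Ppargc1a*, a member of both this and the preceding list, had a log2 fold change of 0.27 (limma adjusted p = 0.178), which passed without Scramble replicate 1 (0.39, adjusted p = 0.0472, range 0.0472 to 0.394) and was 0.17 without Scramble replicate 2 and 0.12 without background correction. The uncoupling protein *Ucp3* had a log2 fold change of 0.46 with its tested probe (limma adjusted p = 0.142). It was 0.28 without Scramble replicate 2 and 0.16 without background correction. That probe was detected on 1 Scramble array and 3 siDJ-1 arrays, so that without Scramble replicate 3 it enters the test through the siDJ-1 arrays alone, and its call there is not used. The other *Ucp3* probe was detected on 2 siDJ-1 arrays and not tested. The glucose transporter *Slc2a4* had a log2 fold change of 0.10 (limma adjusted p = 0.836), which ran from -0.15 without Scramble replicate 3 to 0.45 without Scramble replicate 1.

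**Figure D4:**
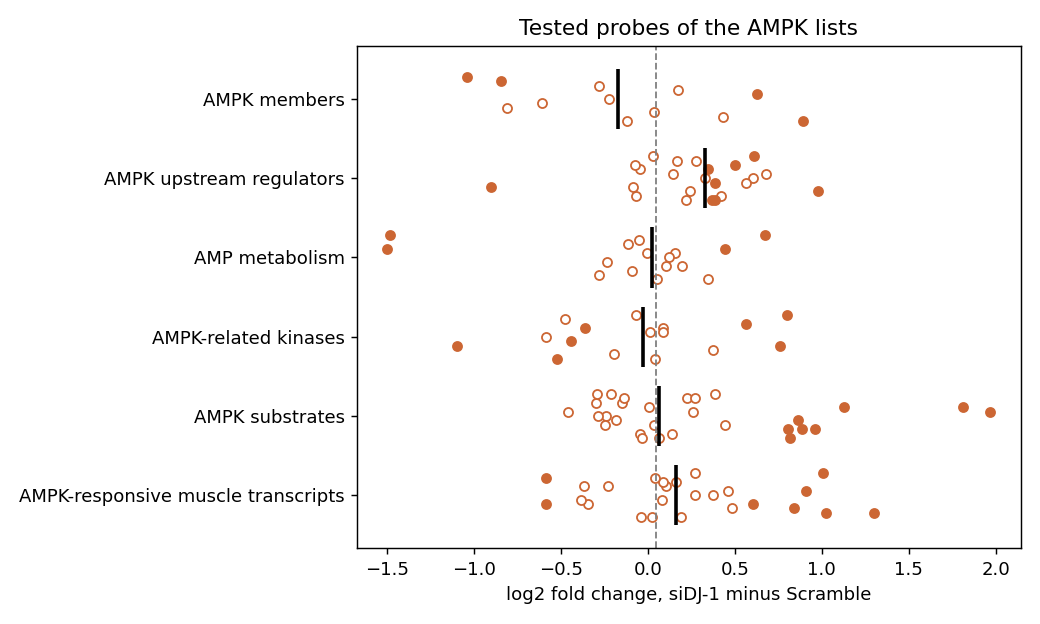
Log2 fold change (siDJ-1 minus Scramble) of every tested probe of the members and of the 5 pathway lists. Filled points passed an adjusted p of 0.05, black lines are list medians (0.33 for upstream regulators) and the dashed line is the median of all tested probes, 0.046.

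The label of the cells was checked against markers, since *PRKAG3* is a muscle transcript. All 23 myotube marker genes had a tested probe. Of the 40 myotube probes, 24 were lower and 2 higher in siDJ-1 (65% called, against 30.1% of all tested probes), with a median of -0.58. Their log2 fold changes ranged from -3.72 to 1.77. Among those that fell, the brightest probe of *Mef2c*, a muscle transcription factor, was at -2.37 (limma adjusted p = 0.00277) and that of *Myh1*, an adult fast myosin, at -2.19 (limma adjusted p = 0.00284), both named after their values were seen. The count of 26 called fell to 17 without siDJ-1 replicate 1 and to 16 without siDJ-1 replicate 3 or with the unmoderated test. With the mean of probes per gene, 13 of 23 genes were called, all lower (56.5%, against 32.9% of all genes). The summed normalized signal was 431300, 413800 and 411100 under Scramble and 327800, 346600 and 303200 under siDJ-1, with *Acta1* as the brightest gene. The brightest probes of *Myog*, a differentiation factor (-0.11), *Ckm*, the muscle creatine kinase (-0.070), *Acta1*, skeletal actin (-0.0050), and *Myh3*, embryonic myosin (-0.17), did not pass, and each turned positive with a 75th percentile shift (0.024, 0.036, 0.24 and 0.046). The part of the myotube markers in the fall of *PRKAG3* was not tested.

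Markers of undifferentiated myoblasts were lower in 6 of 15 tested probes and higher in 0 (40% called, against 30.1% of all tested probes, 13.6% lower), while 6 of the log2 fold changes were positive and 9 negative. The median log2 fold change of these probes was -0.31. The count of 6 fell to 3 without Scramble replicate 2 or 3 or with no filter, and to 2 without siDJ-1 replicate 1 or 3. With the mean of probes per gene, 5 of 9 genes were called, all lower (55.6%, against 32.9% of all genes). Normalized signal summed to 16000, 17160 and 15960 under Scramble and 12580, 14090 and 11940 under siDJ-1, with *Ccnd1* as the brightest. The proliferation marker *Mki67* had a log2 fold change of 0.20 (limma adjusted p = 0.237; 0.11 without siDJ-1 replicate 2 and 0.34 with the mean of its probes), and *Pax7* of satellite cells was detected on 0 arrays. Of the adipocyte markers, *Cebpa* alone was tested, and its normalized signal was 74.3, 61.5 and 51.2 under Scramble and 37.5, 41.2 and 41.2 under siDJ-1, while *Adipoq* was detected on 0 arrays. The *Cebpa* probe, detected on 3 Scramble arrays and 1 siDJ-1 array, was called lower (-0.63, limma adjusted p = 0.0236), and lost that call under 10 of its 16 alternatives, among them Scramble replicate 2 (-0.63) or siDJ-1 replicate 1 (-0.58), 2 (-0.63) or 3 (-0.65) left out and no background correction (-0.19). Osteoblast markers, with *Bglap* the brightest, summed to 226, 215 and 283 under Scramble and 162, 242 and 166 under siDJ-1 over 3 tested probes. Of the haematopoietic markers, *Cd14* alone was tested (134, 184 and 156 against 93.4, 135 and 88.4), and *Ptprc*, which marks leukocytes, was detected on 0 arrays.

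**Figure D5:**
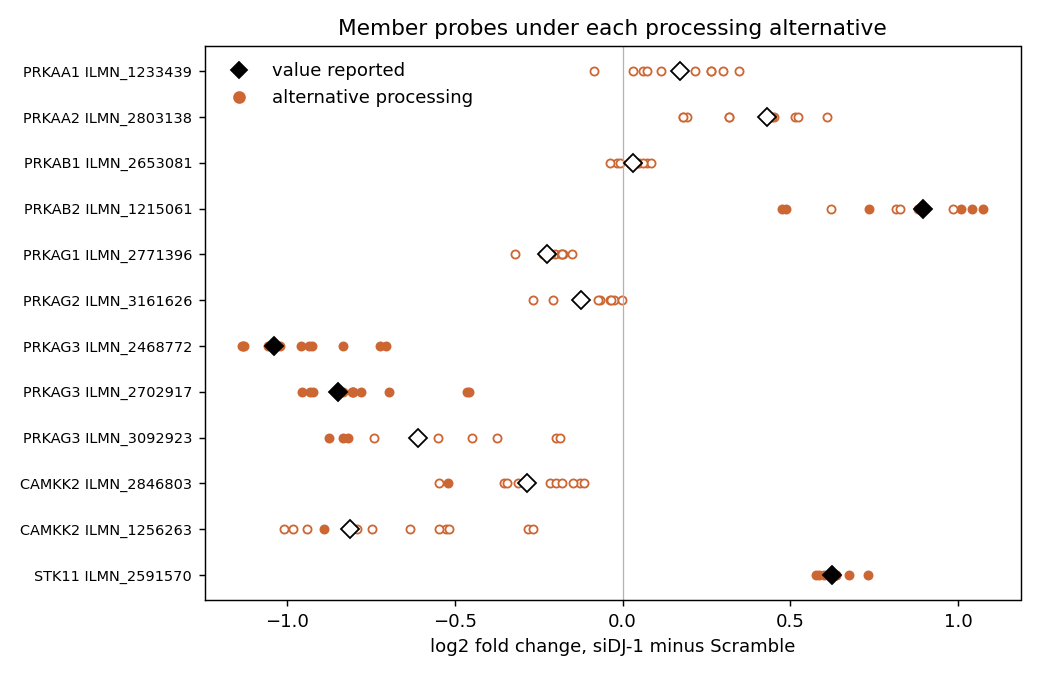
Log2 fold change (siDJ-1 minus Scramble) of the 12 tested member probes as reported (diamonds) and under each processing alternative (circles). Filled symbols passed an adjusted p of 0.05, and *STK11* and 2 *PRKAG3* probes are filled throughout.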

How the data were processed

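The 6 arrays, 3 Scramble and 3 siDJ-1, were compared. The authors quantified the beads in GenomeStudio and deposited, per probe and array, the mean signal intensity with its standard error, the number of beads (a count) and the detection p-value, without normalization or background subtraction. In R 4.3.3 with limma 3.58.1, background was corrected by normexp from the detection p-values with an offset of 16, and arrays were quantile normalized and log2 transformed. Tested probes were fitted with lmFit and eBayes, as two-sided tests, with Benjamini-Hochberg adjustment across the 17890 tested probes. The number of arrays limits the precision.

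The procedure was tested on simulated arrays over a fixed set of seeds. Directions were recovered, but the share of false calls was above the nominal level with the variance prior used here, and the false calls lay among dim probes. A variance trend lowered that share. Calls of dim probes, those of *PRKAB2* and of *PRKAG3* ILMN_2702917 among them, are to be read with this in mind. With such a trend fitted to the 6 arrays, *PRKAB2* (adjusted p = 0.00873) and *PRKAG3* ILMN_2702917 (0.0028) were called. *Cebpa* (0.0663) and *Nuak1* ILMN_2928720 (0.0805) were not called with it.

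Gene names followed the file or RefSeq (GRCm38.p6), which matched 32345 probes and 12 of the 13 member probes. The file names no build. Members and lists were chosen with earlier results of these data known. Named probes are all those of the members, *Park7*, *Ppargc1a*, *Ucp3*, *Slc2a4*, *Acaca* and *Acacb*, up to 4 called, non-overlapping probes per pathway list with the largest change, the brightest probe of 8 marker genes, and the 3 probes most like *PRKAA2*. *Hdac7*, *Cebpa*, *Cd14*, *Bglap*, *Ccnd1*, *Mef2c*, *Myh1*, *Nuak1* and *Mark2* were named after their values were seen. Alternatives were other background corrections, scalings, filters and variance models, a test without moderated variances (the study tested its arrays with a moderated one in GeneSpring), a replicate block, each array left out and the mean of probes per gene. Protein and phosphorylation were not analysed here.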

Additional observations from a re-analysis of the deposited data

How the results depend on the processing

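*Park7*, *STK11* and the 2 brighter *PRKAG3* probes kept their direction and call under all 17 alternatives, at -1.24 to -1.003, 0.58 to 0.73, -1.14 to -0.71 and -0.96 to -0.46. The number of called member probes, 4, ranged from 3 to 5. Of the 2 member probes called higher, 1 was left with no filter, with the unmoderated test and with the replicate block, and leaving out an array gave 1 to 2. With the mean of probes per gene, 1 was called lower.

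The 5387 called probes became 3519 with no filter, where 45281 were tested, and 2444 to 6470 over the alternatives, the lowest without siDJ-1 replicate 1 and 2612 without siDJ-1 replicate 3. Leaving out an array gave 2444 to 5302. Among upstream regulators (8 called), 2 were called with no filter, 4 with the unmoderated test and 4 per gene, and 1 to 7 with an array left out. For AMP metabolism (4), the replicate block gave 2 and leaving out an array 2 to 4. For the related kinases (7), the unmoderated test gave 3, the mean per gene name 4 and leaving out an array 1 to 7. For substrates (8), the mean per gene gave 4, and for responsive transcripts (8) it gave 5 and leaving out an array 3 to 9. Leaving out an array or averaging the probes of a gene gives the test fewer arrays or units, and with no filter more probes share the adjustment. The cause was not tested further.

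*PRKAG3* against *PRKAG1* was -0.50 without background correction, -0.55 without it and with a 75th percentile shift, and -0.61 with the mean of probes. Directions turned for the uncalled probes given here, for *Mark3*, and for *PRKAA2* against *PRKAA1* and *PRKAG2* against *PRKAG1*, as given above. With an array left out, *PRKAA1* ranged from -0.084 to 0.35, *PRKAB1* from -0.038 to 0.084, *Slc2a4* from -0.15 to 0.45, *Ckm* from -0.12 to 0.023 and *Acta1* from -0.050 to 0.066. With array weights, *PRKAB1* was -0.015 and *Acta1* 0.0013. With a 75th percentile shift, *Myog* was 0.024, *Ckm* 0.036, *Acta1* 0.24 (0.18 without background correction) and *Myh3* 0.046. With the mean of probes, *Myog* was 0.055 and *Mark3* -0.0019. Among the called list probes named here, other than those of *Nuak1* and *Mark2*, given above, the call was lost under 8 alternatives for *Ak4*. It was lost under 6 each for *Map3k7*, *Fnip1* ILMN_2725155 and *Mark3*, and under 5 for *Fbxo32* ILMN_2715893. *Adss* lost it under 4, *Sik3* and *Tab1* under 3 each, *Nuak2* under 2 and *Ampd1* ILMN_2971142 under 1.

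The replicate numbers were not used as pairs. Deviations of same-numbered arrays correlated at 0.0537, 0.0474 and 0.0199 across probes, which is under 0.1, though each array correlated best with its own number, a hint from the data and not the design. With the replicate block, 4350 probes were called, and among the member probes the call of *PRKAB2* was lost (adjusted p = 0.0594) and no other changed. Among the named list probes, *Ak4* (adjusted p = 0.0733), *Adss* (0.0557), *Mark3* (0.0516) and *Nuak1* ILMN_2928720 (0.094) were not called with it. The *Cebpa* marker probe lost its call too (0.0511). Signal close to background limits *PRKAA1*, *PRKAG2*, 1 *PRKAG3* probe and *CAMKK2* ILMN_1256263, and *PRKAA2* was dim too.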
